A study of Mus musculus with 3 samples.

Results

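The genes described here are 10 transcripts of the integrated stress response and the unfolded protein response: Atf4, Ddit3, Xbp1, Atf6, Trib3, Asns, Chac1, Herpud1, Ppp1r15a and Ern1. They were chosen by symbol, all 10 were found in the deposited expression table, and they are 10 of the 28074 gene symbols analysed and of the 15181 whose mean over the mice was at least 1 TPM. TPM is a transcript abundance scaled by transcript length and to a fixed total per library, so TPM levels can be compared between genes. Gene positions below are RefSeq's on GRCm38.p6, the assembly of the mm10 build that the submitters' processing notes name. The samples are acute myeloid leukemia cells from the spleens of 3 moribund mice, 1 leukemia per mouse, and together they form 1 group with the genotype miR196b-/-Dnmt3afl/fl,Flt3ITD/ITD,Mx1Cre; no age is given. All 3 therefore share the loss of miR-196b, the floxed Dnmt3a alleles, the Flt3 internal tandem duplication and the Mx1Cre transgene, a recombinase under an interferon-inducible promoter that is active in blood cells and beyond. The sample titles instead write Dnmt3a+/-, so the labels conflict on Dnmt3a. Splenocytes were enriched on magnetic beads for c-Kit, a receptor of immature blood cells, so other spleen cells may remain. The study set these leukemias against leukemias with miR-196b that belong to another series; those were not used here, no comparison of genotypes was made, and what follows is a description of levels without miR-196b and of how they vary from mouse to mouse.

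The integrated stress response begins with kinases that sense amino acid shortage, double-stranded RNA, heme shortage or misfolded protein in the endoplasmic reticulum (ER) and phosphorylate the translation factor eIF2alpha. Most translation then slows while the mRNA of the transcription factor ATF4 is translated more, and ATF4 switches on genes for amino acid supply and, with CHOP (Ddit3), for recovery or cell death. The unfolded protein response adds a pair of further ER sensors: IRE1alpha (Ern1), an RNase that splices the Xbp1 mRNA into the form encoding the active factor, and ATF6, which is cut by Golgi proteases to release a factor that raises ER chaperones. Because eIF2alpha phosphorylation, Xbp1 splicing and ATF6 cleavage act after transcription, a gene's mRNA level is not a reading of its pathway's activity.

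Libraries agreed well across genes, with Pearson's r on log2(TPM + 1) between 0.965 and 0.977 over the 15181 expressed genes, which are not independent replicates. Markers of the labelled cell type were present: Kit, used for the enrichment, stood at 139, 149 and 133 TPM in mice 1, 2 and 3, and Flt3 at 146, 157 and 106 TPM. All 7 markers of immature myeloid cells had a mean of at least 1 TPM. So did all 6 dendritic cell and all 7 late neutrophil markers, so that threshold does not tell these cells apart. In bulk RNA, fewer cells of a type and less RNA per cell cannot be told apart. Mouse numbers follow record order and serve as names. Sequencing depth cannot be recovered from TPM, so the spread between the 3 mice is the only error given, and no interval or limit of detection can be stated.

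The levels fell into 3 ranges. Atf4, Herpud1, Xbp1 and Ppp1r15a were abundant, with means of 194, 190, 154 and 133 TPM, which places them at percentiles 95.8, 95.7, 94.4 and 93.0 of the expressed genes. Ern1, Ddit3, Atf6 and Asns were intermediate at 67.3, 38.6, 34.2 and 23.1 TPM. Trib3 and Chac1 were low at 1.48 and 1.27 TPM, at percentiles 5.24 and 3.77. The median over the 10 genes was 5.69 ± 0.17 on the log2(TPM + 1) scale (SD, n = 3), against a median of 4.18 over all expressed genes. At least 1 TPM was reached by 9, 9 and 10 of the 10 genes in mice 1, 2 and 3.

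**Figure D1:**
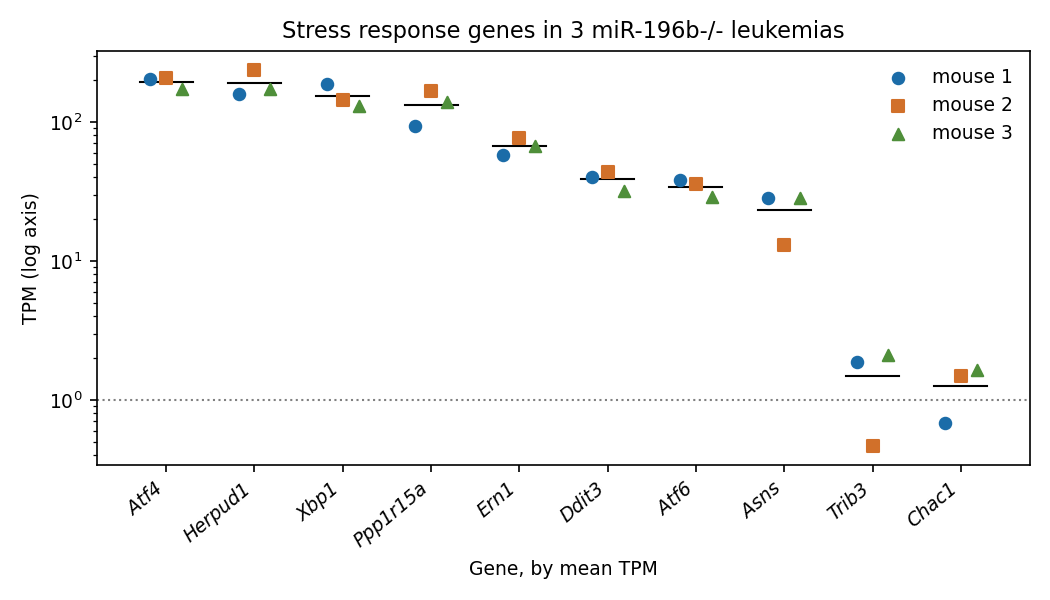
TPM of the 10 genes (log axis, genes ordered by mean) in each of the 3 mice, with a black bar at the mean and a dotted line at 1 TPM. Asns, at 23.1 TPM, is separated by a wide gap from Trib3 and Chac1, at 1.48 and 1.27 TPM.

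Not every step of that order held beyond the spread between mice. The ranges of Atf4, Herpud1, Xbp1 and Ppp1r15a overlapped between neighbours, so their order is not settled by these mice. Ppp1r15a lay above Ern1 and Ern1 above Ddit3 with no overlap. Ddit3 and Atf6 overlapped in range, although Ddit3 was the higher in each of the 3 mice. Atf6 and Asns were separated only narrowly, the lowest Atf6 value being 28.9 TPM and the highest Asns value 28.2 TPM. Trib3 and Chac1 overlapped.

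Atf4 (chr15:80255184-80257545), the transcription factor at the centre of the integrated stress response, had 205, 206 and 171 TPM in mice 1, 2 and 3. Its SD on the log2(TPM + 1) scale was 0.15, at percentile 31.7 of expressed genes, and mouse 3 was the low one. Ddit3 (chr10:127290793-127296291), which encodes the pro-death factor CHOP, had 40.1, 43.6 and 32.0 TPM and was also lowest in mouse 3. The ratio of Atf4 to Ddit3 in TPM ranged only from 4.72 to 5.34 over the mice. Ddit3 shares exonic sequence on the opposite strand with Mars, a methionyl-tRNA synthetase gene (65.7, 55.9 and 54.7 TPM), and with Gm4189 (6.57, 5.37 and 6.41 TPM). The libraries are labelled as stranded, but whether the quantification used strand is not given in the sources used here, so reads of such partners may not have been told apart.

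Ppp1r15a (chr7:45522917-45526268) encodes GADD34, the stress-induced subunit that brings a phosphatase to eIF2alpha and so ends the response. It had 93.3, 166 and 139 TPM in mice 1, 2 and 3, low in mouse 1. Its constitutive relative Ppp1r15b was flatter, at 92.6, 90.4 and 79.0 TPM, so the ratio of the inducible to the constitutive subunit was 1.01 in mouse 1 and 1.83 and 1.76 in mice 2 and 3. Ppp1r15a overlaps an exon of Tulp2 on the opposite strand, which had 5.04, 8.77 and 8.25 TPM.

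The upstream machinery was present throughout. The list held 13 genes: those for eIF2alpha, its kinases and phosphatase and its exchange factor eIF2B, with Gcn1l1 and Nck1 listed beside them. All 13 had a mean of at least 1 TPM, and their median was 5.22 ± 0.19 on the log2(TPM + 1) scale (SD, n = 3). Gcn1l1, the activator of the amino acid sensing kinase, had 122, 130 and 91.5 TPM. The eIF2B subunit gene Eif2b2 had 106, 121 and 110 TPM, while Eif2b3, which encodes another eIF2B subunit, had 27.5, 19.7 and 19.8 TPM. Of the 4 kinases, Eif2ak2 (PKR) had 46.2, 57.2 and 58.2 TPM, Eif2ak1 (the heme-regulated kinase) 40.2, 38.2 and 38.1 TPM, Eif2ak4 (GCN2) 40.4, 41.5 and 31.0 TPM, and Eif2ak3 (PERK, the ER kinase) 19.9, 22.5 and 19.4 TPM. The values of Eif2ak3 stayed below those of the other kinases in every mouse.

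Asns, Trib3 and Chac1 are widely used as transcriptional readouts of ATF4. Asns (chr6:7675165-7693209) encodes asparagine synthetase, Trib3 (chr2:152337425-152344060) a pseudokinase that damps ATF4 and CHOP, and Chac1 (chr2:119351242-119354326) an enzyme that degrades glutathione. Promoter stretches of Asns, Chac1 and Herpud1 are shown because they hold letters of the binding motifs looked for; Trib3 also holds such letters, after its start site. Sequences are from RefSeq, build GRCm38.p6. Of the 10 genes, 9 had a promoter in the RefSeq table, each covering 250 bases before to 50 after the start site. The motifs were searched on both strands: the C/EBP-ATF response element bound by ATF4 with its partners (CARE, TGATGNAA), the ER stress response element (ERSE, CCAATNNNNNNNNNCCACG), its second form (ERSE-II, ATTGGNCCACG) and the core of the XBP1 and ATF6 site (UPRE core, TGACGTGG). Stretches before the start site are printed 5′ to 3′ on the gene's strand, with the matching letters in capitals, a match on the reverse strand appearing as its reverse complement.
Asns, chr6:7693210-7693247, minus strand: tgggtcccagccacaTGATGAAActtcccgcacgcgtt
Chac1, chr2:119351034-119351071, plus strand: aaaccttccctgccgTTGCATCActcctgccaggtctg
Herpud1, chr8:94386302-94386402, plus strand: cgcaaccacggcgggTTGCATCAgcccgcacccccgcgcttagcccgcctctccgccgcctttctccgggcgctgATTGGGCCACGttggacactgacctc

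The CARE letters lay from -23 to -16 relative to the start site in Asns, from -193 to -186 in Chac1 and from -112 to -105 in Herpud1. In Trib3 they lay at bases 14 to 21 after the start site. The letters of CARE occur in 3.97% of the 32851 promoter windows of the table. Herpud1 was the gene with ERSE-II letters, from -52 to -42, which occur in 0.0365% of windows and do not overlap its CARE letters. The ERSE (0.119% of windows) and UPRE core (0.676%) letters occurred in none of the 9 promoters. A match is a description of the letters in this window, not of binding.

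Asns had 28.1, 13.1 and 28.2 TPM in mice 1, 2 and 3, and Trib3 had 1.88, 0.468 and 2.09 TPM. Both were low in mouse 2 and close together in mice 1 and 3. Asns lay 1.05 log2 units lower in mouse 2 than in either other mouse, and Trib3 0.97 and 1.07 units lower. Their SDs of 0.61 and 0.59 were the widest of the 10 genes, at percentiles 94.1 and 93.7 of expressed genes, and both rested on mouse 2: without it they were 0.0017 and 0.073. Chac1 did not share this order, at 0.682, 1.48 and 1.64 TPM with mouse 1 lowest. Without mouse 1 its SD fell from 0.35 to 0.065.

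Against a nearly level Atf4, the targets therefore varied in their ratios. Atf4 exceeded Asns 7.27-fold in mouse 1, 15.7-fold in mouse 2 and 6.07-fold in mouse 3. It exceeded Trib3 109-fold, 439-fold and 81.8-fold in the same order. Chac1 was exceeded 300-fold, 139-fold and 104-fold. Since Trib3 and Chac1 lay near 1 TPM and their depth is unknown, the counting error in these last ratios cannot be stated.

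Among the genes of the ER sensors, Xbp1 (chr11:5520641-5525993) was highest in mouse 1, with 188, 144 and 129 TPM in the 3 mice in order. Values are per gene symbol, so they do not separate spliced from unspliced Xbp1 mRNA and say nothing of the amount of active factor. Ern1 (chr11:106397620-106487796), whose product does that splicing, had 57.6, 76.7 and 67.5 TPM and was lowest in mouse 1. Xbp1 thus exceeded Ern1 3.26-fold in mouse 1 against 1.88-fold and 1.92-fold in mice 2 and 3. Atf6 (chr1:170704457-170868585) had 38.0, 35.5 and 28.9 TPM, with mouse 3 lowest and an SD of 0.20 log2 units. Herpud1 (chr8:94386429-94395371), an ER membrane protein of the degradation machinery for misfolded proteins, had 159, 238 and 174 TPM, and mouse 2 stood above the others.

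Of 9 other listed genes for sensors and their processing, 7 had a mean of at least 1 TPM. D10Wsu52e, the older symbol of Rtcb, which encodes the ligase that rejoins the cleaved Xbp1 mRNA, led them at 128, 101 and 93.8 TPM. Mbtps1 and Mbtps2, which encode the proteases that cut ATF6, had 43.1, 39.3 and 38.7 TPM and 37.7, 38.3 and 31.6 TPM. Creb3, an ER-tethered relative of Atf6, had 28.9, 41.2 and 27.2 TPM, and Atf6b, its closer relative, 11.5, 15.7 and 12.9 TPM. Ern2, the epithelial counterpart of Ern1, had 0.118, 0.123 and 0.0872 TPM, and Creb3l1 0.327, 0.598 and 0.604 TPM.

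The 10 genes did not share 1 order of mice. By mouse, 2 were highest in mouse 1, 5 in mouse 2 and 3 in mouse 3, where 48.6%, 31.1% and 20.3% of all expressed genes were highest. Lowest values fell in mouse 1 for 4 genes, mouse 2 for 2 and mouse 3 for 4, against 24.4%, 33.0% and 42.6% of expressed genes. After the libraries were scaled to a common upper quartile the counts of members were the same, but the shares of all expressed genes were nearly even, with 35.6%, 33.9% and 30.4% highest and 36.0%, 33.5% and 30.5% lowest in mice 1, 2 and 3. That scaling moved the median difference of mouse 1 from the mean of the others over all expressed genes from 0.10 to -0.01 log2 units. Atf4, Herpud1, Ppp1r15a, Ern1 and Ddit3 were highest in mouse 2, Xbp1 and Atf6 in mouse 1, and Asns, Trib3 and Chac1 in mouse 3.

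**Figure D2:**
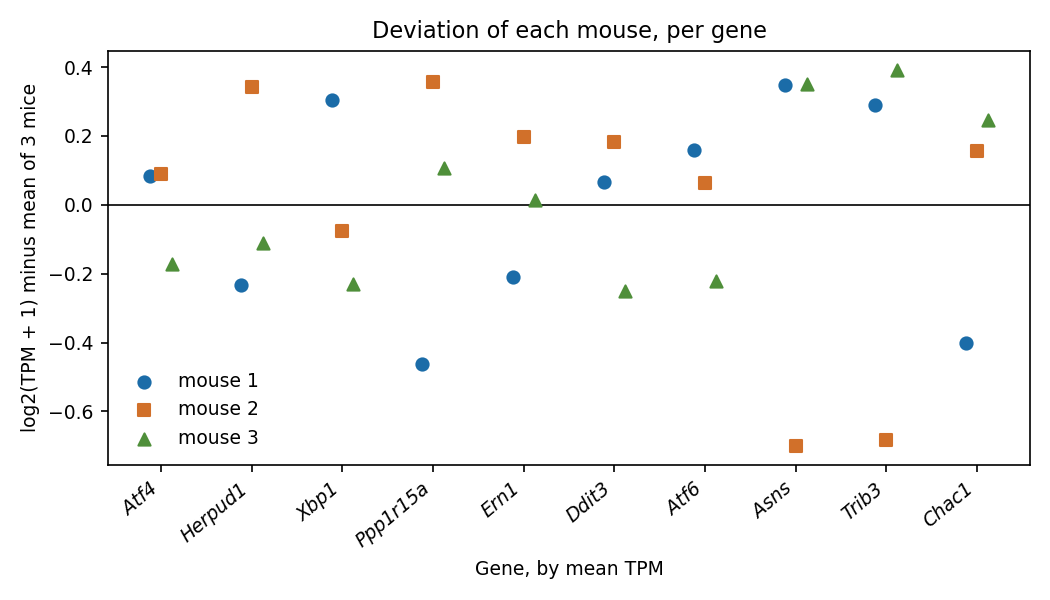
Deviation of each mouse from the mean of the 3 mice on the log2(TPM + 1) scale, for each of the 10 genes in order of mean TPM. Mouse 2 lies lowest for Asns and Trib3 and highest for 5 genes, and mouse 1 lies lowest for 4 genes, among them Ppp1r15a and Chac1.

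Differences of at least 2-fold on the log2(TPM + 1) scale held for 0 to 2 of the 10 genes, depending on the pair of mice. Between mice 1 and 2 this held for 1 of the 10 genes (Asns), against 4.64% of expressed genes. Between mice 1 and 3 it held for 0, against 5.38%, and between mice 2 and 3 for 2 (Asns and Trib3), against 2.90%. The pseudocount of 1 shrinks the differences of low genes: with 0.1 the counts were 3, 1 and 2, and Trib3 differed 4.47-fold between its highest and lowest mouse in plain TPM. After upper-quartile scaling the count between mice 1 and 2 was 0. The median SD of the 10 genes was 0.289 log2 units against 0.208 over all expressed genes, and 7 of the 10 were above that value. With 3 mice this difference between medians was not tested.

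**Figure D3:**
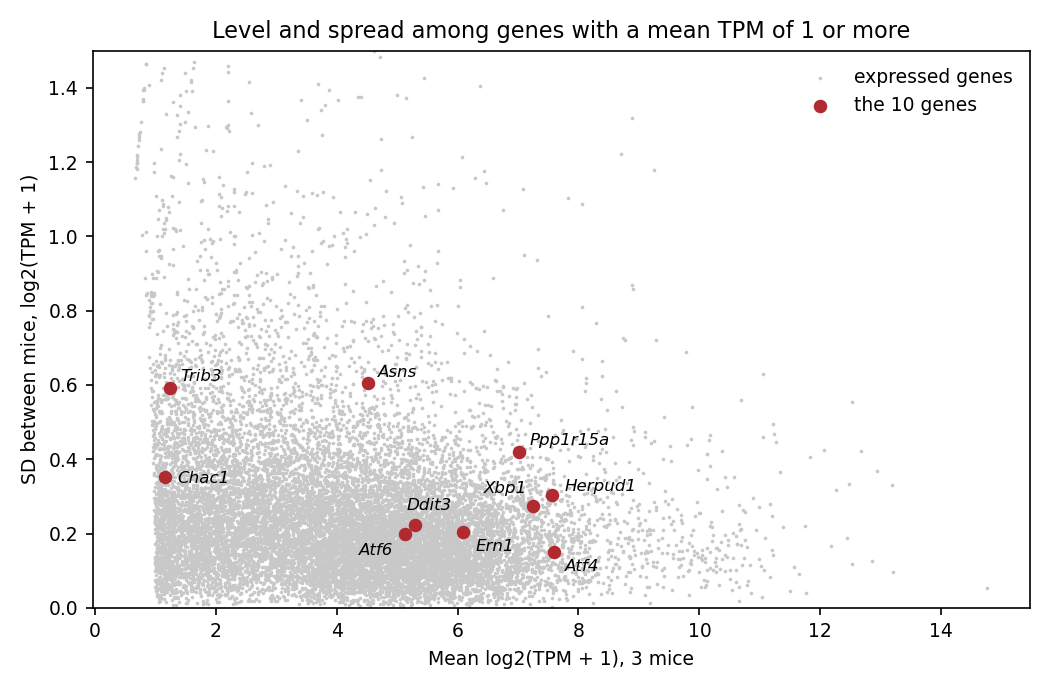
Mean log2(TPM + 1) (horizontal) and SD between the 3 mice (vertical) for each gene with a mean of at least 1 TPM, in grey, with the 10 genes in red; 65 expressed genes with an SD above 1.5 lie outside the axis. Atf4 has the smallest SD of the 10 genes (0.15), and Asns and Trib3 the widest (0.61 and 0.59).

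Before upper-quartile scaling, genes downstream of ATF4 that supply amino acids were mostly highest in mouse 1. Of the 10 expressed synthesis and one-carbon genes, 8 were highest there, where 48.6% of all expressed genes were, and 5 after upper-quartile scaling, against 35.6%. Their median difference from the mean of the other mice was 0.42 log2 units, against 0.10 for all expressed genes, and 0.31 against -0.01 after scaling. Phgdh, the first enzyme of serine synthesis, had 216, 118 and 119 TPM, Psat1, the next enzyme, 81.7, 53.5 and 50.6 TPM, and the mitochondrial serine enzyme Shmt2 117, 79.9 and 80.8 TPM. Psph, the last step of serine synthesis, had 22.1, 11.0 and 13.8 TPM. Asns, also an ATF4 target for amino acid supply, was as high in mouse 3 as in mouse 1 and low in mouse 2. In the same list Pck2, the mitochondrial enzyme that makes phosphoenolpyruvate, had 22.6, 15.1 and 21.5 TPM, and Aldh18a1, an enzyme of proline synthesis, 30.7, 26.6 and 28.6 TPM. Both were lowest in mouse 2, as Asns was, and highest in mouse 1 before scaling but in mouse 3 after it. Of the 10 genes of the list, 5 were lowest in mouse 2, against 33.0% of all expressed genes. The SD of Aldh18a1 was only 0.10 log2 units.

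Of 8 expressed amino acid transporters, 7 were highest in mouse 1 with or without upper-quartile scaling, against the same 35.6% and 48.6% of expressed genes. Their median difference was 0.36 log2 units, and 0.26 after scaling. The glutamine carrier Slc1a5 had 155, 139 and 107 TPM and Slc38a2, another carrier of neutral amino acids, 99.5, 77.6 and 76.5 TPM. Slc3a2 and Slc7a5, the subunits of a leucine exchanger, had 96.4, 83.9 and 67.6 TPM and 78.3, 41.7 and 34.7 TPM. Slc6a9, a glycine transporter, had 4.13, 1.88 and 2.56 TPM. Of 12 aminoacyl-tRNA synthetases, 10 were highest in mouse 1 with or without scaling, again against 35.6% and 48.6% of expressed genes. Their median difference of mouse 1 from the others was 0.26 log2 units, against 0.10 for all expressed genes, and fell to 0.14 after scaling. Gars (114, 85.6 and 78.5 TPM), Yars (86.1, 77.5 and 68.6 TPM) and Wars (51.1, 38.9 and 38.4 TPM) followed that order, whereas Sars was level at 74.7, 77.1 and 75.9 TPM.

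The genes of stress output did not all share 1 order. Of the 8 expressed genes, 5 were highest in mouse 2 and 5 lowest in mouse 3, with or without upper-quartile scaling. Among all expressed genes, 31.1% were highest in mouse 2 and 42.6% lowest in mouse 3, or 33.9% and 30.5% after scaling. Ddit4, an inhibitor of the growth kinase mTORC1, had 103, 23.4 and 16.4 TPM and stood 2.34 log2 units higher in mouse 1 than in the mean of the other mice. The cell death genes Bcl2l11 (73.5, 86.5 and 56.8 TPM) and Bbc3 (54.2, 48.1 and 35.1 TPM) were both lowest in mouse 3. Of the 10 genes of this list 8 reached a mean of 1 TPM, and Fgf21, a secreted hormone, was listed at 0 in every mouse. Among partner factors, Jund had 182, 218 and 145 TPM, Nfe2l2, the antioxidant regulator, 53.2, 56.3 and 60.5 TPM, and Cebpb 23.6, 15.3 and 23.2 TPM. Atf3, which acts both in this pathway and as an immediate early gene, had 75.9, 280 and 119 TPM and was high in mouse 2.

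ER chaperones were mostly lowest in mouse 1, where most amino acid genes were highest before upper-quartile scaling. Of 12 chaperone and folding genes, 9 were lowest in mouse 1 and 9 highest in mouse 3 (10 and 11 after upper-quartile scaling), with a median difference of mouse 1 from the others of -0.30 log2 units (-0.41 scaled). Of all expressed genes, 24.4% were lowest in mouse 1 and 20.3% highest in mouse 3, or 36.0% and 30.4% after scaling. Their median level was 7.93 ± 0.09 on the log2(TPM + 1) scale (SD, n = 3), above that of every other list of the stress pathways. Hspa5, which encodes BiP, the chaperone that holds the sensors inactive, had 500.2, 716 and 660.1 TPM. Calr, a calcium-binding chaperone, had 688, 756 and 829 TPM, Hsp90b1 (GRP94) 251, 381 and 441 TPM, and Creld2 20.4, 30.3 and 37.0 TPM. The order of Xbp1 and Atf6, both highest in mouse 1, was not that of these chaperones.

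Genes downstream of XBP1 and genes of ER-associated degradation differed little. Their median SDs were 0.11 and 0.12 log2 units, below the 0.208 of all expressed genes, and all 14 and all 10 listed genes had a mean of at least 1 TPM. Sec61b, a translocon subunit, had 259, 245 and 269 TPM, the stabilising factor Serp1 248, 227 and 205 TPM, and the translocon-associated Ssr3 214, 168 and 170 TPM. Sec61a1, the channel itself, was highest in mouse 1 at 212, 164 and 150 TPM, as was Ssr1, another translocon-associated subunit, at 80.9, 59.9 and 60.5 TPM. In the degradation list Vcp, the ATPase that extracts misfolded proteins, had 246, 199 and 201 TPM, the lectin gene Os9 60.4, 56.5 and 60.1 TPM, and Derl3 1.67, 3.37 and 2.34 TPM.

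**Figure D4:**
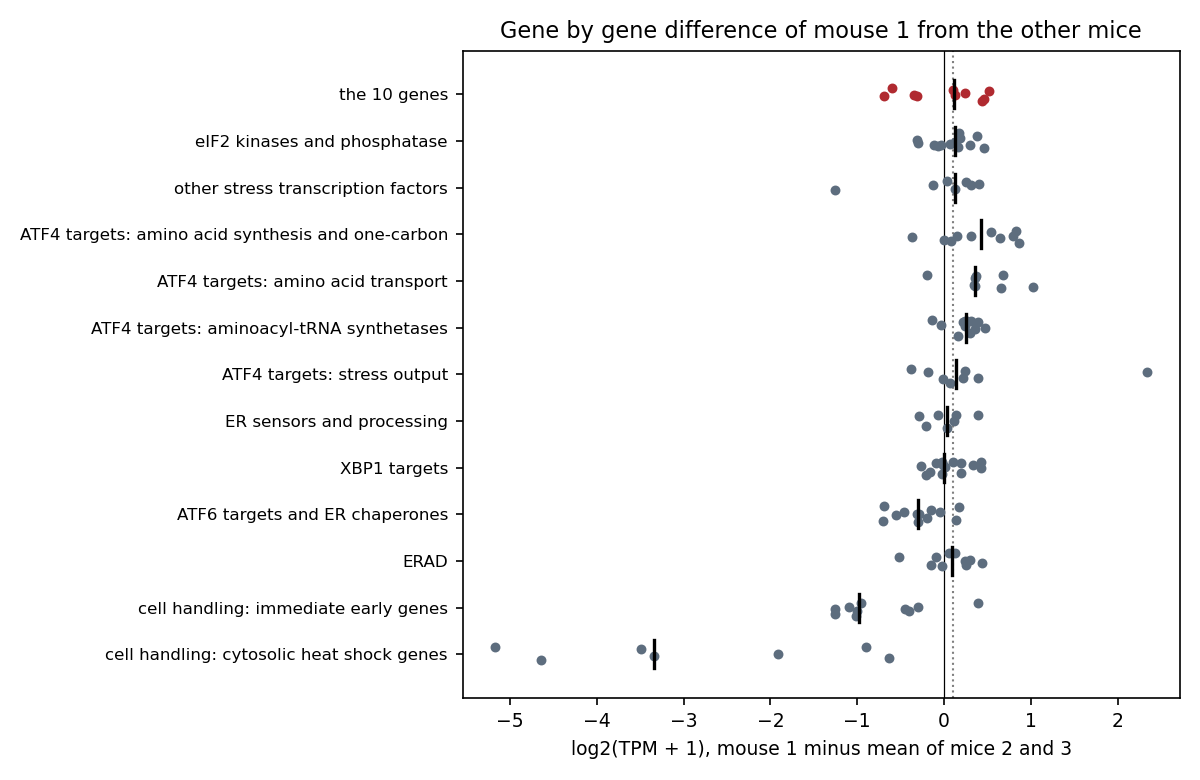
Difference of mouse 1 from the mean of mice 2 and 3 on the log2(TPM + 1) scale, 1 point per gene with a mean of at least 1 TPM, by list, with a black bar at each list's median and a dotted line at the median of all expressed genes (0.10). Amino acid genes lie mostly to the right (medians 0.42 and 0.36), ER chaperones to the left (-0.30), and the 10 genes on both sides (0.11).

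Genes known to respond to the handling of cells also differed between these mice. Of 10 immediate early genes 8 were highest in mouse 2 and 8 lowest in mouse 1 (8 and 9 after upper-quartile scaling). Among all expressed genes, 31.1% were highest in mouse 2 and 24.4% lowest in mouse 1, or 33.9% and 36.0% after scaling. The summed level of the 10 immediate early genes was 1981, 4175 and 2718 TPM, with Fos leading at 563, 1455 and 821 TPM. Of the 10 genes described here, Ppp1r15a, Herpud1 and Ern1 took the same order of mice as Fos, lowest in mouse 1 and highest in mouse 2. The others did not. The share of all expressed genes with that order was not counted, and 3 mice allow few orders, so the match cannot be judged. All 7 cytosolic heat shock genes were lowest in mouse 1 and highest in mouse 3, with or without scaling. The shares of all expressed genes were 24.4% lowest in mouse 1 and 20.3% highest in mouse 3, or 36.0% and 30.4% scaled. Summed over the 7 genes, the level was 3156, 6826 and 7976 TPM, and Hspa8 was the most abundant at 1929.7, 2937 and 3049 TPM. Hspa8 and Hsp90aa1 carry most of that sum, and the inducible genes stood further apart: Hspa1b had 29.1, 1011 and 1167 TPM and Hspa1a 27.9, 686 and 762 TPM. Hsph1, a co-chaperone of the same family, had 27.0, 260.1 and 381 TPM, and the small heat shock gene Hspb1 0.487, 9.24 and 21.3 TPM. The median difference of mouse 1 from the mean of the other mice over the 7 genes was -3.34 log2 units. The part of the handling genes in the differences of Ppp1r15a, Herpud1, Ern1, Chac1, Atf3 and the ER chaperones was not tested.

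Markers of other cells were also read, because secretory and myeloid cells can carry much Xbp1 and chaperone RNA. Plasma cells, the classic user of XBP1, left little trace: of 7 markers 3 had a mean of at least 1 TPM, their summed level was 7.19, 14.7 and 15.1 TPM, Irf4 was highest at 3.20, 7.87 and 7.08 TPM, and Sdc1, Prdm1, Mzb1 and Tnfrsf17 stayed below 1 TPM in every mouse. B cell markers summed to 15.3, 12.8 and 16.4 TPM, 3 of 5 with a mean of at least 1 TPM, and Cd79b led them at 13.1, 8.94 and 10.1 TPM. T and NK cell markers summed to 11.1, 14.8 and 16.8 TPM, 4 of 5 with such a mean, and Cd3d led them.

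Late neutrophil granule genes were all 7 highest in mouse 3 and lowest in mouse 1, with or without upper-quartile scaling. The shares of all expressed genes were 20.3% and 24.4%, or 30.4% and 36.0% scaled. These 7 genes summed to 2451, 6430 and 21431 TPM, and S100a8 was the most abundant of them. The 6 dendritic cell markers, which include Flt3, summed to 485, 929 and 618 TPM, and Clec9a led at 184, 415 and 273 TPM. In mouse 2, 5 of the 6 were highest with or without scaling, against 31.1% of all expressed genes, or 33.9% scaled. Macrophage markers, 4 of 6 with a mean of at least 1 TPM, summed to 92.1, 163 and 157 TPM, and Cd68 led them at 68.2, 124 and 107 TPM. Like Fos, Clec9a and Cd68 took the order of Ppp1r15a, Herpud1 and Ern1, lowest in mouse 1 and highest in mouse 2. No other listed macrophage marker did: Emr1 and Csf1r were highest in mouse 3, Mertk was lowest in mouse 3, and C1qa and C1qb were lowest in mouse 2. Among the dendritic cell markers, Flt3 was lowest and Siglech highest in mouse 3. Of 6 erythroid markers 5 were found and 4 had a mean of at least 1 TPM. The 5 summed to 38.8, 31.7 and 81.0 TPM, with Klf1 highest. The part of unequal neutrophil, dendritic cell or macrophage RNA in the differences of the stress genes between mice was not tested.

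Because all 3 leukemias lack miR-196b, the 3′ untranslated regions of the 10 genes were searched for matches to its seed. The mature miRNA of the intact gene, from RefSeq (GRCm38.p6, chr6:52230129-52230150, minus strand), is shown with its seed, bases 2 to 8, in capitals.
miR-196b-5p: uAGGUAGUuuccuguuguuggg

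The 7 bases complementary to that seed (ACTACCT) occurred in no annotated 3′ untranslated region of the 10 genes in GENCODE M21. They occurred in 7.29% of the 11923 expressed genes with such a region, so 0 of 10 is near what that share gives and says nothing of other ways of targeting.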

How the data were processed

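RNA sequencing was run on c-Kit-enriched leukemic spleen cells of 3 mice of 1 group, paired-end at 150 nt with 30000000 reads planned and RNA integrity above 8, per the labels' protocols, which name both ribosomal depletion and an mRNA kit. The authors deposited 1 table of values per gene symbol. It is named log2 FPKM, but its values are linear, never negative and sum per column to within 0.276% of one another, so the deposited values were read as TPM. Kallisto and mm10 are named in the submitters' processing notes, and the annotation and the steps from transcripts to genes are not given in the sources used here. A further 3 columns of the table are samples of another series and were not used.

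Of 28987 rows, 795 without a symbol and 27 with a date as symbol were left out (0.734% to 0.787% of the column sums), and 90 symbols on several rows were summed, none of them among the 10 genes. TPM was transformed as log2(TPM + 1), with a mean of at least 1 TPM as the threshold for expressed genes. Older symbols were matched through RefSeq synonyms. Means and SDs were taken over mice; with 1 group there was no test, and nothing shows more than the spread between these animals. Genes named are the 10 genes and, of each pathway list, the 3 with the highest mean, the 2 with the largest SD and those listed at 0; of each cell type and handling list, the gene with the highest mean. A gene that this rule would name is not reported here. Other genes named, such as the kinases, Pck2, Aldh18a1, the heat shock genes other than Hspa8 and the plasma cell markers below 1 TPM, and the differences of 1 mouse from the others were chosen with their values in view. The members and lists were chosen with earlier results of these data known. Alternatives tried were a smaller pseudocount, other detection thresholds, a stricter level filter, upper-quartile scaling and each mouse left out. Scripts were tested on simulated data. Python 3.11.15, numpy 2.4.6, pandas 2.3.3 and matplotlib 3.10.9 were used.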

Additional observations from a re-analysis of the deposited data

How the results depend on the processing

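No paired analysis was possible because all mice belong to 1 group. The number of members at least 2-fold different was 1 between mice 1 and 2, and became 3 with a pseudocount of 0.1 and 0 after upper-quartile scaling. Between mice 1 and 3 it was 0, and 1 with a pseudocount of 0.1. Between mice 2 and 3 it was 2, and 1 among members with a mean of at least 5 TPM. The median level of the members ranged from 5.59 to 5.75 log2 units when 1 mouse was left out, their median spread from 0.194 to 0.341 and the mean number at 1 TPM or more from 9 to 9.5. Of 50 recomputed levels of single members, 48 moved by less than their SD over the 3 mice, and Trib3 and Chac1 moved with the pseudocount of 0.1. For the lists, 96 of 100 recomputed levels stayed within their SD, and the other 4, all of sparse cell type lists, moved with the pseudocount of 0.1. Leaving out 1 of 3 mice cannot move a mean by as much as its SD, so those recomputations could not have moved. Upper-quartile scaling is centred over the mice and hardly shifts their mean. Both counts of unmoved levels are therefore no sign of stability, and mainly the pseudocount was put to the test. The counts of members highest in each mouse kept their values after upper-quartile scaling. Depth is unknown, so counting error at the low levels of Trib3 and Chac1 cannot be stated.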
